A study of Homo sapiens with 24 samples.

Results

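The genes described here encode the nucleolar machinery that builds ribosomes, together with subunits and factors of RNA polymerase I and a pair of RNA polymerase III subunits. They were taken from a list of 54 genes named for these roles, which was drawn up with earlier results of these data known. Of the 54 members, 47 were measured by a probe set to which the platform annotation gives a single gene symbol, among 19775 genes so named. PPAN, BOP1, NOP56 and DKC1 had only probe sets with several symbols, and EBNA1BP2, GNL3 and DDX18 were not analysed here. The 47 measured members fall into 14 small-subunit factors, 11 large-subunit factors, 6 proteins of small nucleolar ribonucleoproteins (snoRNPs), 3 nucleolar phosphoproteins, 2 DEAD-box helicases, 2 exosome subunits, 7 subunits and factors of RNA polymerase I and 2 subunits of RNA polymerase III.

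Ribosome production starts in the nucleolus, where RNA polymerase I transcribes the ribosomal DNA into a long precursor RNA. snoRNPs guide the chemical modification of this precursor, helicases and assembly factors fold it while ribosomal proteins bind, and nucleases including the RNA exosome cut and trim it into the RNAs of the small and the large subunit. The pathway is most active in growing cells, and the transcription factor MYC is a known activator of many of its genes.

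RNA was profiled on 24 Affymetrix U133 Plus arrays from 4 prostate cancer cell lines, each cultured for 24 hours with DMSO vehicle, 0.5 µM or 10 µM I-BET762 (GSK525762A), a small molecule that blocks the acetyl-lysine pockets of the BET bromodomain proteins. LNCaP and VCaP are androgen receptor-positive lines from metastases, PC3 came from bone and has little androgen receptor, and NCI-H660 is a neuroendocrine prostate cancer line. Each of the 12 groups held 2 independent biological replicates of 1 line, so every line difference below is a difference between single cell lines, and each p rests on 2 cultures a group. Signals are MAS5 intensities that the authors scaled to a trimmed mean of 500 on each array.

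The arrays labelled LNCaP and VCaP ran against their labels in the genes that mark these lines. ERG, the ETS factor of the gene fusion carried by VCaP and NCI-H660, read 2867 to 7084 on the 6 arrays labelled LNCaP and 5.855 to 28.3 on the 6 labelled VCaP. ETV1, the ETS gene rearranged in LNCaP, read 14.53 to 90.33 in labelled LNCaP and 191.7 to 407.8 in labelled VCaP. The groups are therefore written as labelled LNCaP and labelled VCaP throughout, and contrasts that join them do not depend on which is which. In NCI-H660 ERG lay at 65.54 to 142.7, the summed signal of 7 neuroendocrine markers lay between 16050 and 28620, against 1155 to 8508 in the other lines, and the sum of 6 luminal markers did not pass 542.8, against at least 23800 in labelled LNCaP and VCaP. Array medians ran between 72.3 and 100.3, 44.4% to 50.1% of probe sets reached a signal of 100, and replicate arrays correlated across probe sets at 0.934 to 0.953. A control probe set for the middle of 28S ribosomal RNA read higher on treated than on vehicle arrays in NCI-H660, with 579.7 and 477.2 in vehicle, 807.3 and 779.6 at 0.5 µM and 1408 and 1065 at 10 µM, and in labelled LNCaP, with 842.5 and 989.1 in vehicle, 1174 and 1197 at 0.5 µM and 1535 and 1691 at 10 µM. In labelled VCaP this control was higher at 10 µM only, with 1705 and 1549 in vehicle, 1410 and 1662 at 0.5 µM and 1884 and 2226 at 10 µM. In PC3 it overlapped vehicle at both concentrations. In labelled VCaP the control for the 5′ end of 18S ribosomal RNA read lower on every treated array, with 571.3 and 487 in vehicle, 231.1 and 217.4 at 0.5 µM and 254.8 and 242.4 at 10 µM, as did the control for its middle, with 428.9 and 417.6 in vehicle, 310.6 and 273.6 at 0.5 µM and 246.2 and 307.4 at 10 µM. Their part in the results was not tested.

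I-BET762 lowered most of the module in labelled LNCaP and labelled VCaP, lowered fewer members in PC3, and raised members of it in NCI-H660. A gene passed where the limma p adjusted over all probe sets was under 0.1 and the mean signal reached 100 in either group. In labelled LNCaP, 39 of the 47 members passed as lower than vehicle at 0.5 µM and none as higher, where 16.5% of all detected genes passed as lower and 17.4% as higher. At 10 µM the count was again 39 lower and 0 higher (26.7% and 27.1% of all genes), and the members' median log2 change was -0.77 at 0.5 µM and -1.08 at 10 µM, where that of all detected genes was 0.03 at both. In labelled VCaP, 26 members were lower at 0.5 µM (13.2% of all genes) and 33 at 10 µM (21.8%), with median log2 changes of -0.42 and -0.69 and no member higher (11.8% and 20.1% of all genes). At an unadjusted p under 0.05, limma gave 0 higher members in either. The 26 became 11 to 15 when any 1 of the 4 arrays of that comparison was left out. Fitted with the arrays of the line alone, 19 members were lower in labelled LNCaP at 0.5 µM and 32 at 10 µM, and 4 and 27 in labelled VCaP.

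PC3 had 6 members lower at 0.5 µM, where 4.44% of all genes were lower, and 20 at 10 µM (14%), with median log2 changes of -0.27 and -0.38. No member was higher in PC3 (6.66% and 16.1% of all genes); at an unadjusted p under 0.05 limma gave 0 and 1. The 6 became 0 to 2 without any 1 of the 4 arrays compared, and the 20 became 13 without vehicle replicate 2. Fitted with PC3 arrays alone, which leaves 3 residual degrees of freedom, 0 members passed at either concentration, and 5 and 17 had an unadjusted p under 0.05. In NCI-H660, where 46 members were detected, 0 were lower and 7 higher at 0.5 µM (3.27% and 4.36% of all genes), and 2 were lower and 13 higher at 10 µM (16.8% and 16.9%), with medians of 0.19 and 0.23. At an unadjusted p under 0.05, limma also gave 0 lower members in NCI-H660 at 0.5 µM. Fitted with NCI-H660 arrays alone, 0 were higher at 0.5 µM, and 0 were lower and 5 higher at 10 µM, where limma's unadjusted p under 0.05 gave 8 higher, and 2 lower and 12 higher. The 7 became 0 to 2 without any 1 of the 4 arrays compared, the 13 became 8 without 10 µM replicate 2, and the 2 became 0 without vehicle replicate 2 and 1 without 10 µM replicate 2. Both concentrations of a line were set against the same 2 vehicle arrays, so their counts are not independent. In these bulk RNAs, fewer transcripts per cell and a smaller share of cells that make them cannot be told apart, and a change of all RNAs together is removed by the scaling. Centring each array on its median in place of the deposited scaling moved the median of all genes by -0.18 and -0.13 in labelled LNCaP and by 0.06 and 0.18 in NCI-H660, and left the members' medians on the same side of 0 in every line.

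**Figure D1:**
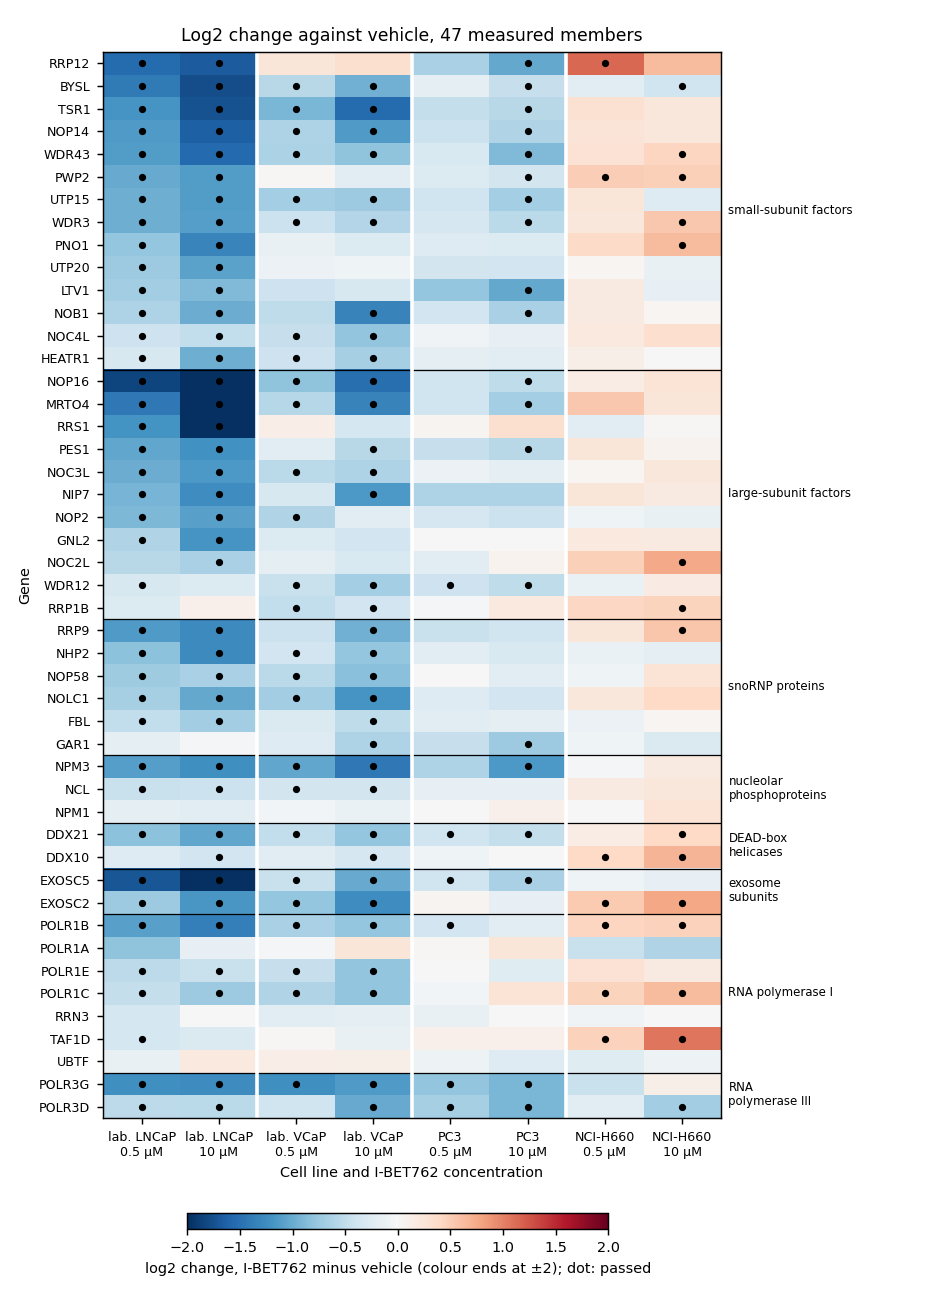
Log2 change of the 47 measured members (rows, grouped by role) at 0.5 µM and 10 µM I-BET762 against vehicle in each line (columns); blue is lower and red higher than vehicle, and a dot marks a member that passed. The columns of labelled LNCaP are blue nearly throughout, with 39 dots each, while those of NCI-H660 are mostly pale red, with 7 and 15 dots.

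Promoter sequence was read for the hexamer CACGTG, the canonical E-box that MYC and related factors bind. RefSeq windows of GRCh38.p14 from 250 bases before to 50 bases after the annotated start were available for 44 of the 54 members. RRP12, NOP58, NOLC1, RRP1B, RRS1, POLR1E, POLR3D, POLR3G, BOP1 and DDX18 had no window. CACGTG, which reads the same on both strands, stood in 19 of the 44 (43.2%), against 2396 of 27305 genes with a window (8.77%) and 10.9% of protein-coding genes. In 6 lists of other biogenesis and polymerase genes it stood in 32 of 123 (26.0%). These held 13 of 35 small-subunit factors (37.1%), 11 of 42 large-subunit factors (26.2%) and 6 of 20 RNA polymerase III genes (30.0%). The share was 12.5% for snoRNP and for RNA polymerase I genes and 0.0% for exosome genes. In the members the hexamer lay mostly after the start. The 50 bases after the start held it in 16 members (36.4%) and in 306 of all genes (1.12%), and the bases before the start in 4 members (9.09%) and 7.73% of all genes. In the 6 lists together those shares were 7.32% after and 19.5% before the start. By role, 7 of 13 small-subunit factors, 7 of 12 large-subunit factors, 3 of 6 snoRNP proteins, 1 of 2 helicases and 1 of 2 exosome subunits held it, and none of 3 nucleolar phosphoproteins and 6 RNA polymerase I members did.

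The stretches below are shown because they place the hexamer, in capitals, in the 10 members with a match that fell furthest in labelled LNCaP at 0.5 µM. They are written on the gene's strand from RefSeq, GRCh38.p14, with the distance of the first capital from the start, and were chosen after the matches had been seen.
EXOSC5, chr19:41397431-41397460, minus strand, 89 bases before the start: taaacgctaagcCACGTGcggacgcccagg
EXOSC5, chr19:41397328-41397357, minus strand, 15 bases after the start: caactgcagccgCACGTGggctcggcgcga
MRTO4, chr1:19251807-19251836, plus strand, 15 bases after the start: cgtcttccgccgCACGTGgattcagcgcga
BYSL, chr6:41921515-41921544, plus strand, 29 bases after the start: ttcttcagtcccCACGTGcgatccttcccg
RRP9, chr3:51941892-51941921, minus strand, 5 bases before the start: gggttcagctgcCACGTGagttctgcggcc
NOP14, chr4:2963374-2963403, minus strand, 16 bases after the start: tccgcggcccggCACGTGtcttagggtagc
WDR43, chr2:28894658-28894687, plus strand, 4 bases after the start: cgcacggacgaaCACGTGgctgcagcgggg
PES1, chr22:30591880-30591909, minus strand, 14 bases after the start: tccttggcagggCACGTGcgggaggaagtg
PWP2, chr21:44107388-44107417, plus strand, 2 bases after the start: tgagctgcggcaCACGTGcgacggccgtga
NOC3L, chr10:94362903-94362932, minus strand, 20 bases after the start: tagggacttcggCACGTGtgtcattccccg
NOP2, chr12:6568242-6568268, minus strand, 36 bases after the start: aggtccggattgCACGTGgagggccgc
In EXOSC5 1 match lies before and 1 after the start, in RRP9 the match spans the start, and in the other 8 it lies within the first 50 transcribed bases. A match is a description of the letters and not a binding site. NOP16, which fell further than any of these at 0.5 µM, and TSR1, NPM3 and POLR1B hold no match in their windows.

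Among the 14 small-subunit factors, which process the 18S part of the precursor, all 14 were lower in labelled LNCaP at both concentrations, 8 and 9 in labelled VCaP, and 0 and 10 in PC3. Of all genes, 16.5% and 26.7% were lower in labelled LNCaP, 13.2% and 21.8% in labelled VCaP and 4.44% and 14% in PC3. The counts of the other roles below are to be read beside the same shares. At a given concentration, all treated arrays lay below all vehicle arrays for 30.2% (PC3, 0.5 µM) to 40% (NCI-H660, 10 µM) of all genes. They lay above for 31% (PC3, 0.5 µM) to 41.7% (labelled LNCaP, 10 µM). Such separation is described below for single genes and is no test. Members named by role were chosen partly for it, so it adds nothing to their calls. BYSL (bystin), needed for a late step of small-subunit maturation, read, in labelled LNCaP, 1064 and 1137 in vehicle, 422.3 and 405 at 0.5 µM and 349.7 and 298.3 at 10 µM. Its signal was, in labelled VCaP, 1187 and 1130 in vehicle, 766.8 and 803.9 at 0.5 µM and 561.6 and 624.1 at 10 µM. In both, the treated arrays lay below the vehicle arrays, with log2 changes (± SE) of -1.41 ± 0.11 (adjusted p = 5.85e-06) and -1.77 ± 0.11 (adjusted p = 1.2e-07) for labelled LNCaP and -0.56 ± 0.11 (adjusted p = 0.00747) and -0.97 ± 0.11 (adjusted p = 4.87e-05) for labelled VCaP. PC3 gave 1464 and 1526 in vehicle, 1289 and 1317 at 0.5 µM and 1052 and 1120 at 10 µM, a fall that passed at 10 µM (-0.46 ± 0.11, adjusted p = 0.0184). NCI-H660 gave 312.6 and 336.6 in vehicle, 300.2 and 262.8 at 0.5 µM and 251.5 and 238.3 at 10 µM, and BYSL was 1 of only 2 members that passed as lower there, at 10 µM (-0.41 ± 0.11, adjusted p = 0.0317).

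TSR1, a GTPase-like factor of the cytoplasmic pre-40S particle, fell further at 10 µM than at 0.5 µM on the arrays of both labels. It read, in labelled LNCaP, 4158 and 3773 in vehicle, 1783 and 1734 at 0.5 µM and 1273 and 1110 at 10 µM. Labelled VCaP gave 4144 and 4063 in vehicle, 2155 and 2189 at 0.5 µM and 1447 and 1372 at 10 µM. No treated array reached a vehicle array in either, and the changes at 10 µM were -1.74 ± 0.16 (adjusted p = 2.57e-06) in labelled LNCaP and -1.54 ± 0.16 (adjusted p = 1.42e-05) in labelled VCaP. The direct contrast of 10 µM with 0.5 µM passed for both, at -0.57 ± 0.16 (adjusted p = 0.0484) in labelled LNCaP and -0.62 ± 0.16 (adjusted p = 0.0521) in labelled VCaP. PC3 read 3182 and 3488 in vehicle, 2687 and 2121 at 0.5 µM and 2340 and 2208 at 10 µM, and passed at 10 µM with -0.55 ± 0.16 (adjusted p = 0.0378). NCI-H660, at 500.1 and 563.3 in vehicle, 717.9 and 595.1 at 0.5 µM and 541.3 and 715.8 at 10 µM, lay below every other array, and its treated arrays overlapped the vehicle arrays at 10 µM.

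PWP2, a core protein of the U3 snoRNA particle, was lower in labelled LNCaP and higher in NCI-H660. Its signals were, in labelled LNCaP, 2122 and 2208 in vehicle, 1097 and 1063 at 0.5 µM and 1001 and 1003 at 10 µM. NCI-H660 gave 566.3 and 535.4 in vehicle, 795.2 and 751.7 at 0.5 µM and 749 and 784.7 at 10 µM. The treated arrays lay on opposite sides of their vehicle arrays in these lines, with changes of -1.003 ± 0.13 (adjusted p = 0.000212) and -1.11 ± 0.13 (adjusted p = 2.56e-05) for labelled LNCaP and of 0.49 ± 0.13 (adjusted p = 0.0806) and 0.48 ± 0.13 (adjusted p = 0.0276) for NCI-H660. Labelled VCaP gave 502.8 and 503 in vehicle, 536.7 and 489.3 at 0.5 µM and 464.1 and 404.7 at 10 µM, with no change that passed, and PC3 gave 1376 and 1391 in vehicle, 1289 and 1025 at 0.5 µM and 1179 and 967.8 at 10 µM, lower at 10 µM, at -0.37 ± 0.13 (adjusted p = 0.0925). PWP2 has 3 probe sets, and the average over them turned the sign in labelled LNCaP, PC3 and NCI-H660.

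RRP12, which assists the export and maturation of both subunits, was lower in some lines and higher in another. It read, in labelled LNCaP, 790.7 and 533.9 in vehicle, 202.8 and 245.6 at 0.5 µM and 192.1 and 220 at 10 µM, a change of -1.54 ± 0.27 (adjusted p = 0.0018) and -1.66 ± 0.27 (adjusted p = 0.000385). Labelled VCaP gave 411.4 and 491.2 in vehicle, 450.1 and 627.3 at 0.5 µM and 544.5 and 582.3 at 10 µM, with changes of 0.24 and 0.33 that did not pass. PC3 gave 897.9 and 917.8 in vehicle, 605.1 and 551.8 at 0.5 µM and 461.4 and 430.8 at 10 µM, lower at 10 µM, at -1.03 ± 0.27 (adjusted p = 0.025). In NCI-H660 the signal was 62.5 and 107.5 in vehicle, 180.4 and 182 at 0.5 µM and 103 and 155.5 at 10 µM, with a vehicle mean under 100, and 0.5 µM was at least 1.81-fold higher (adjusted p = 0.0471). RRP12 has 5 probe sets, and their average gave no fall in labelled LNCaP at 10 µM.

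The other 10 small-subunit factors were lower in labelled LNCaP at 10 µM, at -1.63 in NOP14, a nucleolar scaffold, -1.55 in WDR43, -1.12 in UTP15 and -1.11 in WDR3, all parts of the early precursor particle, and -0.49 in NOC4L at the small end. WDR43 was also lower in PC3 at 10 µM, at -0.89 ± 0.14 (adjusted p = 0.00104), and was the single member lower at 10 µM than at 0.5 µM in that line (-0.57, where 1.17% of all genes passed as lower and 0.987% as higher). NOB1, the nuclease that makes the last cut of 18S ribosomal RNA, read, in labelled VCaP, 2169 and 2108 in vehicle, 1492 and 1525 at 0.5 µM and 929.2 and 766.8 at 10 µM. All treated arrays lay below vehicle, and 10 µM was lower than 0.5 µM, at -0.84 ± 0.19 (adjusted p = 0.0292). UTP20 and PNO1, which act in early and late small-subunit particles, passed as lower in labelled LNCaP only, and LTV1, an export factor of the small subunit, was lower in labelled LNCaP and, at 10 µM, in PC3 (-1.02 ± 0.25, adjusted p = 0.0163).

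The lowest change among the assembly factors was that of a large-subunit factor in labelled LNCaP, and that of a small-subunit factor in labelled VCaP and PC3, at each concentration. Of the 11, 9 were lower in labelled LNCaP at each concentration, 6 and 7 in labelled VCaP, and 1 and 4 in PC3. NOP16, a nucleolar protein of early large-subunit particles, read, in labelled LNCaP, 4575 and 5005 in vehicle, 1355 and 1334 at 0.5 µM and 972.2 and 1060 at 10 µM. All 4 treated arrays there lay far below both vehicle arrays, with changes of -1.83 ± 0.13 (adjusted p = 1.89e-06) and -2.24 ± 0.13 (adjusted p = 3.67e-08), folds of 3.56 and 4.71. Labelled VCaP gave 4168 and 4111 in vehicle, 2537 and 2203 at 0.5 µM and 1421 and 1498 at 10 µM, changes of -0.81 ± 0.13 (adjusted p = 0.0012) and -1.50 ± 0.13 (adjusted p = 2.49e-06). PC3 gave 5654 and 5529 in vehicle, 4847 and 3721 at 0.5 µM and 3902 and 3972 at 10 µM, lower at 10 µM, at -0.51 ± 0.13 (adjusted p = 0.0191), which the average over its 4 probe sets did not show. NCI-H660 gave 867.7 and 805.7 in vehicle, 930 and 925.3 at 0.5 µM and 1023 and 1000 at 10 µM, with every treated array above both vehicle arrays and no change that passed.

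MRTO4, a relative of the ribosomal stalk protein that holds its place during assembly, read, in labelled LNCaP, 2473 and 2547 in vehicle, 996.8 and 864.4 at 0.5 µM and 524 and 433.3 at 10 µM. Labelled VCaP gave 866.3 and 887.1 in vehicle, 619.8 and 568.3 at 0.5 µM and 378.8 and 318.5 at 10 µM. It fell at both concentrations in both, at -1.44 ± 0.18 (adjusted p = 0.00013) and -2.40 ± 0.18 (adjusted p = 3.74e-07) in labelled LNCaP and -0.56 ± 0.18 (adjusted p = 0.0681) and -1.34 ± 0.18 (adjusted p = 0.000119) in labelled VCaP, and 10 µM lay below 0.5 µM, at -0.96 ± 0.18 (adjusted p = 0.0051) in labelled LNCaP and -0.77 ± 0.18 (adjusted p = 0.032) in labelled VCaP. PC3 gave 3241 and 2789 in vehicle, 2621 and 1980 at 0.5 µM and 1822 and 1941 at 10 µM, with a change at 10 µM of -0.68 ± 0.18 (adjusted p = 0.0236). NCI-H660 gave 502.2 and 558.3 in vehicle, 893 and 668.9 at 0.5 µM and 655.1 and 596.1 at 10 µM, above vehicle on every treated array but not past the test.

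RRS1, which in yeast brings the 5S ribosomal RNA particle into the large subunit, read, in labelled LNCaP, 3006 and 3806 in vehicle, 1506 and 1451 at 0.5 µM and 752.3 and 480.3 at 10 µM. The fall reached -2.49 ± 0.32 (adjusted p = 6.04e-05) at 10 µM, a 5.63-fold change, and 10 µM lay below 0.5 µM, at -1.30 ± 0.32 (adjusted p = 0.0293). It passed in no other line. Labelled VCaP gave 2305 and 2310 in vehicle, 2155 and 3000 at 0.5 µM and 2031 and 1624 at 10 µM. PC3 gave 5234 and 2267 in vehicle, 3580 and 3590 at 0.5 µM and 4121 and 4531 at 10 µM, with 1 vehicle array above and 1 below all treated arrays. NCI-H660 gave 988 and 816.1 in vehicle, 873.1 and 667.7 at 0.5 µM and 861.8 and 961 at 10 µM, overlapping.

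PES1 and WDR12 are partners in a complex that large-subunit assembly needs. PES1 changed by -1.03 ± 0.16 (adjusted p = 0.000677) in labelled LNCaP at 0.5 µM, and WDR12 by -0.33 ± 0.11 (adjusted p = 0.0822). At 10 µM PES1 passed there (-1.21 ± 0.16, adjusted p = 5.8e-05), and WDR12, at -0.27 ± 0.11 (adjusted p = 0.106), did not. In PC3 WDR12 was lower at both concentrations (-0.41 and -0.50), and PES1 at 10 µM (-0.56). NOC2L, which acts in early large-subunit particles, read, in NCI-H660, 564.4 and 484.8 in vehicle, 631 and 834.4 at 0.5 µM and 916.5 and 859.1 at 10 µM, above vehicle on every treated array and passed at 10 µM (0.76 ± 0.25, adjusted p = 0.0586). Labelled LNCaP gave 975.9 and 1357 in vehicle, 817.3 and 757.4 at 0.5 µM and 629.9 and 846 at 10 µM, lower at 10 µM, at -0.66 ± 0.25 (adjusted p = 0.0712), while labelled VCaP gave 1235 and 1243 in vehicle, 1109 and 1081 at 0.5 µM and 951.1 and 1065 at 10 µM, and PC3 gave 1006 and 1037 in vehicle, 840.9 and 899.5 at 0.5 µM and 1448 and 799 at 10 µM, with no change that passed. NOP2, a methyltransferase of the large-subunit RNA, NOC3L, the partner of NOC2L, the GTPase GNL2 and NIP7, which binds the precursor, changed by -1.08, -1.15, -1.17 and -1.24 in labelled LNCaP at 10 µM, all past the test. RRP1B, a nucleolar protein of the same pathway, was lower in labelled VCaP (-0.49 and -0.39) and higher in NCI-H660 at 10 µM (0.44).

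Of the 6 snoRNP proteins, 5 were lower in labelled LNCaP at each concentration, 3 and 6 in labelled VCaP, and 0 and 1 in PC3. The PC3 counts lie near the 4.44% and 14% of all genes that were lower there. RRP9, a protein of the U3 particle that guides early cuts, read, in labelled LNCaP, 1014 and 1067 in vehicle, 435.9 and 520.2 at 0.5 µM and 397.2 and 463.5 at 10 µM. Labelled VCaP gave 1202 and 1222 in vehicle, 876.2 and 934.4 at 0.5 µM and 614 and 635.9 at 10 µM. All treated arrays lay below vehicle, and the changes at 10 µM were -1.28 ± 0.16 (adjusted p = 5.02e-05) in labelled LNCaP and -0.96 ± 0.16 (adjusted p = 0.000915) in labelled VCaP. NCI-H660 gave 533.8 and 366.6 in vehicle, 529 and 519 at 0.5 µM and 671.4 and 622.5 at 10 µM, a change of 0.55 ± 0.16 (adjusted p = 0.0409) at 10 µM, and PC3 gave 2079 and 2036 in vehicle, 1382 and 1664 at 0.5 µM and 1609 and 1516 at 10 µM, below vehicle on every treated array but not past the test. NHP2, a core protein of the H/ACA particles that direct pseudouridine formation, read, in labelled LNCaP, 14810 and 14780 in vehicle, 8618 and 8121 at 0.5 µM and 6230 and 6024 at 10 µM. Labelled VCaP gave 12180 and 12420 in vehicle, 9567 and 9221 at 0.5 µM and 7418 and 7011 at 10 µM. It changed by -1.27 ± 0.13 (adjusted p = 8.6e-06) in labelled LNCaP and -0.77 ± 0.13 (adjusted p = 0.000979) in labelled VCaP at 10 µM. PC3 gave 12910 and 13720 in vehicle, 12890 and 10190 at 0.5 µM and 10690 and 10820 at 10 µM, and NCI-H660 gave 6060 and 4718 in vehicle, 4754 and 4955 at 0.5 µM and 4785 and 4558 at 10 µM, with no change that passed in either. FBL (fibrillarin), the methyltransferase of the box C/D particles, changed by -0.69 ± 0.12 (adjusted p = 0.000735) in labelled LNCaP and -0.51 ± 0.12 (adjusted p = 0.00989) in labelled VCaP at 10 µM. NOLC1, a chaperone of snoRNPs, changed by -1.03 ± 0.15 (adjusted p = 0.000146) and NOP58, a core protein of the box C/D particles, by -0.64 ± 0.14 (adjusted p = 0.00322) in labelled LNCaP at 10 µM. GAR1, the partner of NHP2, did not pass in labelled LNCaP (-0.17 and -0.04) but was lower at 10 µM in labelled VCaP (-0.62) and PC3 (-0.73).

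Of the 3 nucleolar phosphoproteins, NPM3 and NCL were lower on the arrays of both labels and NPM1 passed nowhere. NPM3, a small relative of nucleophosmin, read, in labelled LNCaP, 729.2 and 738.9 in vehicle, 411.4 and 285 at 0.5 µM and 232 and 427.7 at 10 µM. Labelled VCaP gave 2081 and 2028 in vehicle, 970.5 and 1027 at 0.5 µM and 799.9 and 733.6 at 10 µM. PC3 gave 1889 and 2081 in vehicle, 1297 and 1280 at 0.5 µM and 1003 and 797.3 at 10 µM. Each treated group lay below its vehicle arrays, and the changes at 10 µM were -1.22 ± 0.25 (adjusted p = 0.00235) in labelled LNCaP, -1.42 ± 0.25 (adjusted p = 0.00118) in labelled VCaP and -1.15 ± 0.25 (adjusted p = 0.009) in PC3. NCI-H660 gave 275.5 and 228.9 in vehicle, 225 and 269.3 at 0.5 µM and 251.4 and 321.4 at 10 µM, overlapping throughout. NCL (nucleolin), the major RNA-binding protein of the nucleolus, read, in labelled LNCaP, 17120 and 15310 in vehicle, 11670 and 12050 at 0.5 µM and 11800 and 12200 at 10 µM. Labelled VCaP gave 17220 and 16260 in vehicle, 13040 and 13000 at 0.5 µM and 13130 and 12940 at 10 µM. Its falls were small but larger than the replicate spread, -0.43 ± 0.10 (adjusted p = 0.00412) in labelled LNCaP and -0.36 ± 0.10 (adjusted p = 0.0183) in labelled VCaP at 10 µM. PC3 gave 15850 and 15770 in vehicle, 14630 and 13700 at 0.5 µM and 13670 and 14490 at 10 µM, and NCI-H660 gave 9446 and 10040 in vehicle, 11170 and 10920 at 0.5 µM and 11260 and 11550 at 10 µM, without a pass. NPM1 (nucleophosmin), a chaperone of assembling particles, had changes between -0.21 in labelled LNCaP and 0.27 in NCI-H660, both at 10 µM.

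Both DEAD-box helicases were lower on the arrays of both labels at 10 µM and higher in NCI-H660 at 10 µM. DDX21, which binds ribosomal DNA transcripts and snoRNAs, read, in labelled LNCaP, 10690 and 11560 in vehicle, 6168 and 6462 at 0.5 µM and 5185 and 5588 at 10 µM. Labelled VCaP gave 12050 and 13880 in vehicle, 8953 and 9356 at 0.5 µM and 7525 and 7600 at 10 µM. PC3 gave 12990 and 13320 in vehicle, 10460 and 9534 at 0.5 µM and 9744 and 9160 at 10 µM. The falls at 0.5 µM passed in all of these, at -0.82 ± 0.10 (adjusted p = 0.000176) in labelled LNCaP, -0.50 ± 0.10 (adjusted p = 0.00839) in labelled VCaP and -0.40 ± 0.10 (adjusted p = 0.0562) in PC3. NCI-H660 gave 4694 and 4763 in vehicle, 5177 and 5286 at 0.5 µM and 6236 and 6222 at 10 µM, with a change of 0.40 ± 0.10 (adjusted p = 0.0212) at 10 µM. DDX10, a helicase of the small-subunit pathway, read, in NCI-H660, 1091 and 1052 in vehicle, 1399 and 1416 at 0.5 µM and 1753 and 1680 at 10 µM. No treated array overlapped vehicle there, and the changes were 0.39 ± 0.10 (adjusted p = 0.069) and 0.68 ± 0.10 (adjusted p = 0.000551). Labelled LNCaP gave 2829 and 3093 in vehicle, 2439 and 2526 at 0.5 µM and 2326 and 2213 at 10 µM, and labelled VCaP gave 2375 and 2542 in vehicle, 2100 and 2083 at 0.5 µM and 1988 and 1914 at 10 µM. The falls at 10 µM were -0.38 ± 0.10 (adjusted p = 0.0123) in labelled LNCaP and -0.33 ± 0.10 (adjusted p = 0.0356) in labelled VCaP, and PC3, at 4163 and 4151 in vehicle, 4157 and 3686 at 0.5 µM and 3957 and 4305 at 10 µM, overlapped its vehicle arrays. Averaging its 2 probe sets turned the fall in labelled LNCaP at 10 µM to 0.16.

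Both exosome subunits were lower on the arrays of both labels at both concentrations. EXOSC5, a ring subunit, showed the largest fall of the module and read, in labelled LNCaP, 1582 and 1641 in vehicle, 479.3 and 502.8 at 0.5 µM and 226.6 and 228.7 at 10 µM. The changes were -1.71 ± 0.11 (adjusted p = 1.18e-06) and -2.82 ± 0.11 (adjusted p = 3.09e-09), folds of 3.28 and 7.08, and 10 µM lay below 0.5 µM, at -1.11 ± 0.11 (adjusted p = 5.65e-05). Labelled VCaP gave 782.3 and 900.7 in vehicle, 645.8 and 586.6 at 0.5 µM and 411.4 and 423.6 at 10 µM, and PC3 gave 1635 and 1553 in vehicle, 1266 and 1149 at 0.5 µM and 1045 and 990.4 at 10 µM. Both fell at both concentrations, with changes at 10 µM of -1.01 ± 0.11 (adjusted p = 2.07e-05) in labelled VCaP and -0.65 ± 0.11 (adjusted p = 0.00156) in PC3. NCI-H660 gave 692.5 and 716 in vehicle, 699.2 and 631.9 at 0.5 µM and 637.4 and 622.2 at 10 µM, which did not pass. EXOSC2, a cap subunit that contacts the RNA, read, in labelled LNCaP, 1608 and 1841 in vehicle, 1005 and 1067 at 0.5 µM and 836.4 and 701.2 at 10 µM. Labelled VCaP gave 1881 and 1900 in vehicle, 1105 and 1109 at 0.5 µM and 829.7 and 771.7 at 10 µM, changes of -1.17 ± 0.12 (adjusted p = 8.8e-06) in labelled LNCaP and -1.24 ± 0.12 (adjusted p = 1.01e-05) in labelled VCaP at 10 µM. In NCI-H660 it read 605.5 and 686.3 in vehicle, 896.7 and 949.8 at 0.5 µM and 1108 and 1098 at 10 µM, with no overlap and changes of 0.52 ± 0.12 (adjusted p = 0.0469) and 0.78 ± 0.12 (adjusted p = 0.000831). PC3 gave 1174 and 1132 in vehicle, 1281 and 1109 at 0.5 µM and 1056 and 1011 at 10 µM, with no change that passed.

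Of the 7 RNA polymerase I members, 4 and 3 were lower in labelled LNCaP, 3 and 3 in labelled VCaP and 1 and 0 in PC3, while 3 were higher in NCI-H660 at each concentration (4.36% and 16.9% of all genes). POLR1B, the second-largest subunit, read, in labelled LNCaP, 1669 and 1565 in vehicle, 788.3 and 739.5 at 0.5 µM and 620.7 and 637.4 at 10 µM. Labelled VCaP gave 1658 and 1475 in vehicle, 977.2 and 1019 at 0.5 µM and 886.3 and 944.3 at 10 µM. Its falls at 0.5 µM were -1.08 ± 0.11 (adjusted p = 2.6e-05) in labelled LNCaP and -0.65 ± 0.11 (adjusted p = 0.00195) in labelled VCaP. PC3 gave 1993 and 1891 in vehicle, 1397 and 1582 at 0.5 µM and 1584 and 1731 at 10 µM, lower at 0.5 µM, at -0.39 ± 0.11 (adjusted p = 0.0755), and NCI-H660 gave 356.8 and 375.1 in vehicle, 506.4 and 483.8 at 0.5 µM and 518 and 490.8 at 10 µM, higher by 0.44 ± 0.11 (adjusted p = 0.0594) and 0.46 ± 0.11 (adjusted p = 0.0114). In NCI-H660 no treated array overlapped vehicle. POLR1C, a subunit that RNA polymerase III shares, read, in labelled LNCaP, 2870 and 2969 in vehicle, 2122 and 2058 at 0.5 µM and 1780 and 1765 at 10 µM. Labelled VCaP gave 1389 and 1358 in vehicle, 953.5 and 866.9 at 0.5 µM and 767.8 and 819.5 at 10 µM. NCI-H660 gave 996.8 and 934.6 in vehicle, 1405 and 1228 at 0.5 µM and 1535 and 1457 at 10 µM. Treated arrays lay below vehicle in labelled LNCaP and labelled VCaP and above it in NCI-H660, with changes at 10 µM of -0.72 ± 0.11 (adjusted p = 0.000185) in labelled LNCaP, -0.79 ± 0.11 (adjusted p = 0.000145) in labelled VCaP and 0.63 ± 0.11 (adjusted p = 0.00138) in NCI-H660. PC3 gave 2228 and 2405 in vehicle, 2205 and 2229 at 0.5 µM and 2658 and 2950 at 10 µM, with both 10 µM arrays above vehicle and no pass (0.28). POLR1E, a subunit of the polymerase's initiation and elongation arm, read, in labelled LNCaP, 697.5 and 766 in vehicle, 552.9 and 465.5 at 0.5 µM and 538.6 and 531.8 at 10 µM. Labelled VCaP gave 922.5 and 928.4 in vehicle, 653.7 and 694.2 at 0.5 µM and 479.8 and 592.3 at 10 µM. The falls were -0.45 ± 0.14 (adjusted p = 0.0358) in labelled LNCaP and -0.80 ± 0.14 (adjusted p = 0.00148) in labelled VCaP at 10 µM, while PC3, at 741.5 and 633.7 in vehicle, 671.4 and 692.3 at 0.5 µM and 522.9 and 640 at 10 µM, and NCI-H660, at 317.8 and 319.5 in vehicle, 401.6 and 376.4 at 0.5 µM and 387 and 335.4 at 10 µM, did not pass.

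TAF1D, a subunit of the promoter selectivity factor SL1, showed the largest rise of the detected members in NCI-H660 at 10 µM, where it read 935.5 and 924.9 in vehicle, 1304 and 1246 at 0.5 µM and 2110 and 1806 at 10 µM. The rises were 0.46 ± 0.12 (adjusted p = 0.0836) and 1.07 ± 0.12 (adjusted p = 7.08e-05), and TAF1D was the 1 member that differed between 10 µM and 0.5 µM there (0.61 ± 0.12, adjusted p = 0.0215, where 3.16% of all genes were higher and 4.16% lower). In labelled LNCaP, at 887.1 and 1084 in vehicle, 734.6 and 810 at 0.5 µM and 772.7 and 826 at 10 µM, it was lower at 0.5 µM (-0.35 ± 0.12, adjusted p = 0.0864). Labelled VCaP, at 900.1 and 958.8 in vehicle, 976.9 and 917.4 at 0.5 µM and 846.5 and 823.3 at 10 µM, and PC3, at 1037 and 1040 in vehicle, 1064 and 1172 at 0.5 µM and 1072 and 1155 at 10 µM, did not pass.

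The largest subunit and the general factors RRN3 and UBTF did not pass in any line. POLR1A, the catalytic subunit, read, in labelled LNCaP, 402.1 and 426.3 in vehicle, 183.1 and 308.9 at 0.5 µM and 402.9 and 336.6 at 10 µM, where 2 other probe sets of the gene were lower at 10 µM, with log2 changes of -1.72 (adjusted p = 0.0384) and -0.94 (adjusted p = 0.00956). Labelled VCaP gave 169 and 193.3 in vehicle, 177 and 177.3 at 0.5 µM and 214.3 and 212.3 at 10 µM. PC3 gave 607.1 and 501 in vehicle, 560.4 and 565.3 at 0.5 µM and 751.9 and 568.2 at 10 µM, and NCI-H660 gave 157.1 and 186 in vehicle, 102.3 and 153.6 at 0.5 µM and 73.16 and 171.7 at 10 µM. Its replicates lay far apart in several groups, and the standard error of 0.34 was the largest of the module. RRN3, the factor that makes the polymerase competent to initiate, read, in labelled LNCaP, 545.4 and 575.5 in vehicle, 428.4 and 451.4 at 0.5 µM and 575.6 and 539.3 at 10 µM. Labelled VCaP gave 1512 and 1398 in vehicle, 1210 and 1264 at 0.5 µM and 1269 and 1276 at 10 µM. PC3 gave 1050 and 977.3 in vehicle, 795.6 and 1045 at 0.5 µM and 936.4 and 1113 at 10 µM, and NCI-H660 gave 658.3 and 769.3 in vehicle, 670.9 and 686.1 at 0.5 µM and 793.1 and 652.4 at 10 µM. UBTF, the architectural factor of ribosomal DNA chromatin, read, in labelled LNCaP, 1210 and 1189 in vehicle, 1071 and 1085 at 0.5 µM and 1473 and 1267 at 10 µM. Labelled VCaP gave 727.1 and 771.5 in vehicle, 806.9 and 833.1 at 0.5 µM and 751.8 and 885.6 at 10 µM. PC3 gave 683.4 and 654 in vehicle, 626.4 and 619.6 at 0.5 µM and 613 and 510.6 at 10 µM, and NCI-H660 gave 582.2 and 597 in vehicle, 502.2 and 497.3 at 0.5 µM and 499.4 and 609.7 at 10 µM. Changes of RRN3 ran between -0.35 in labelled LNCaP at 0.5 µM and 0.02 in NCI-H660 at 10 µM, and those of UBTF between -0.26 in PC3 and 0.19 in labelled LNCaP, both at 10 µM.

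Both RNA polymerase III subunits were among the 6 members that passed as lower in PC3 at 0.5 µM. That count became 0 at an adjusted p under 0.05, and 0 to 2 without any 1 of the arrays compared. POLR3G, a form of a small subunit found in proliferating and undifferentiated cells, read, in PC3, 1480 and 1734 in vehicle, 907.3 and 945.4 at 0.5 µM and 849.3 and 852.1 at 10 µM. Labelled VCaP gave 361.3 and 387.7 in vehicle, 157.1 and 162.9 at 0.5 µM and 200 and 145.1 at 10 µM. The falls at 0.5 µM were -0.79 ± 0.21 (adjusted p = 0.0634) in PC3 and -1.23 ± 0.21 (adjusted p = 0.00254) in labelled VCaP. Labelled LNCaP gave 145.2 and 155.9 in vehicle, 77.64 and 53.25 at 0.5 µM and 59.44 and 66.36 at 10 µM, with both treated means under 100, so each was at least 1.5-fold lower than vehicle. NCI-H660, at 82.45 and 75.75 in vehicle, 71.32 and 46.95 at 0.5 µM and 89.86 and 81.73 at 10 µM, was under 100 throughout. POLR3D, a subunit of the initiation and termination module, read, in labelled LNCaP, 228.6 and 241.6 in vehicle, 160.4 and 165.4 at 0.5 µM and 194 and 136.1 at 10 µM. Labelled VCaP gave 664.9 and 633.5 in vehicle, 527.6 and 464 at 0.5 µM and 351.4 and 298.7 at 10 µM. PC3 gave 615.9 and 612.3 in vehicle, 378.3 and 394.3 at 0.5 µM and 304.3 and 345.4 at 10 µM. All treated arrays lay below vehicle, and the changes at 10 µM were -0.53 ± 0.19 (adjusted p = 0.0635) in labelled LNCaP, -1.002 ± 0.19 (adjusted p = 0.00234) in labelled VCaP and -0.92 ± 0.19 (adjusted p = 0.00714) in PC3. In NCI-H660 it read 142.5 and 214.3 in vehicle, 153.1 and 149.1 at 0.5 µM and 117.9 and 99.3 at 10 µM, and was with BYSL the other member lower there, at -0.69 ± 0.19 (adjusted p = 0.0308).

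**Figure D2:**
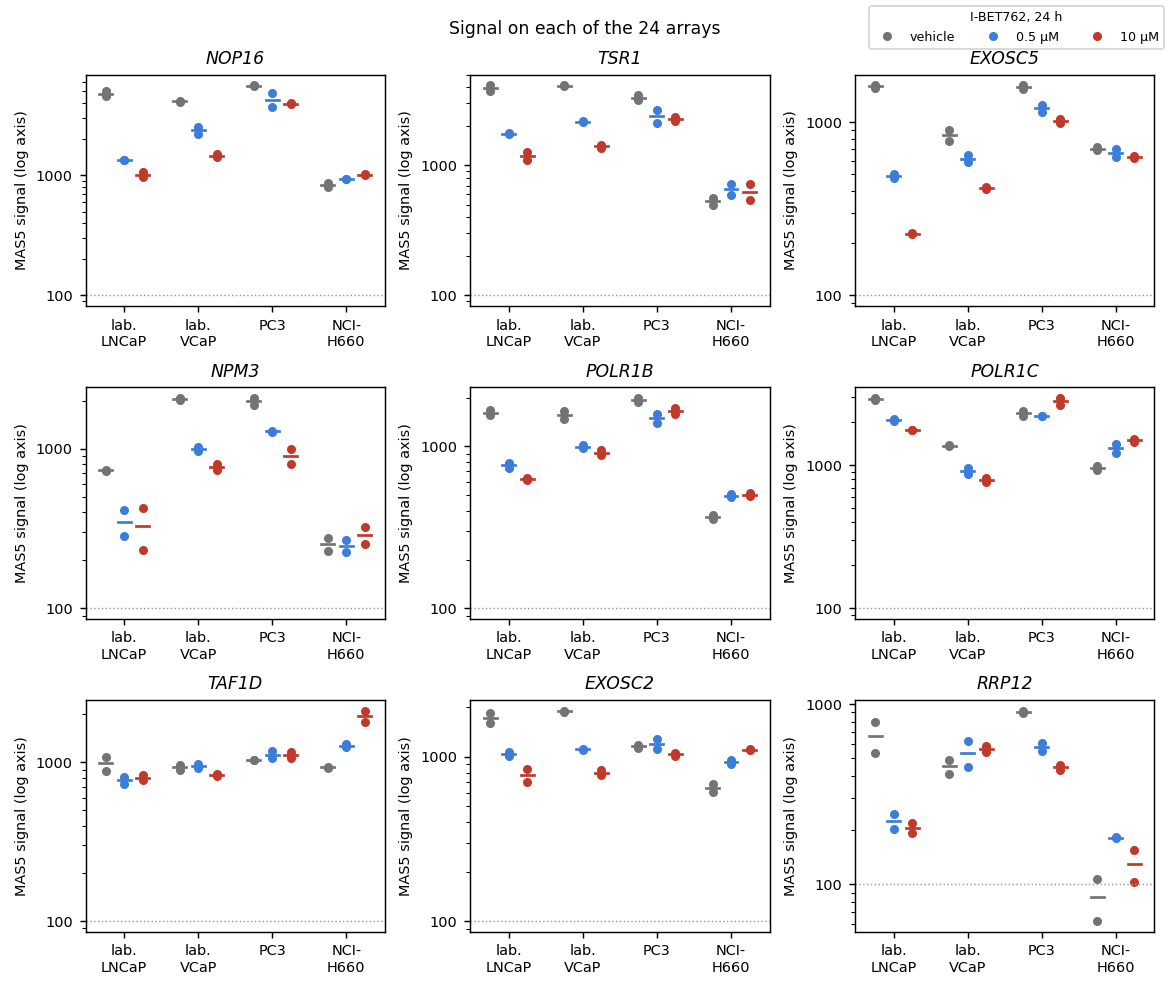
MAS5 signal (log axis, scaled intensity) of 9 members on each of the 24 arrays, by line, with vehicle in grey, 0.5 µM in blue and 10 µM in red; each point is an array, the bar is the group mean and the dotted line is the signal of 100 used as the detection floor. NOP16, TSR1 and EXOSC5 step down in labelled LNCaP and labelled VCaP, while POLR1B, POLR1C, TAF1D and EXOSC2 lie above vehicle in NCI-H660.

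The members that rose in NCI-H660 were then looked up in the other lines. Of the 13 higher in NCI-H660 at 10 µM, 11 (84.6%) were lower in labelled LNCaP, which is 28.2% of the 39 lower there, 9 (69.2%) were lower in labelled VCaP, 27.3% of the 33, and 4 (30.8%) in PC3, 20.0% of the 20. Of all 47 members, 83% were lower in labelled LNCaP, 70.2% in labelled VCaP and 42.6% in PC3 at that concentration. The 13 were DDX10, DDX21, EXOSC2, NOC2L, PNO1, POLR1B, POLR1C, PWP2, RRP1B, RRP9, TAF1D, WDR3 and WDR43, and the sign of PWP2 and WDR3 turned where all probe sets of the gene were averaged. At 10 µM, 15 members were lower in labelled LNCaP, labelled VCaP and PC3 together, and 5 were lower in no line, namely NPM1, POLR1A, RRN3, TAF1D and UBTF. These counts follow from each line's own calls and are no test of a difference.

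The difference between the lines was tested as the mean change of labelled LNCaP and labelled VCaP minus the mean change of PC3 and NCI-H660. A pass therefore does not show that both lines of the first pair fell further than both of the second. At 0.5 µM, 29 members were further down in the mean of labelled LNCaP and labelled VCaP and none the other way. Of all genes, 8.52% and 5.78% passed. RRP12 was among the 29 (-0.90, adjusted p = 0.0783). Its mean signal at 0.5 µM went from 451.3 to 538.7 in labelled VCaP and from 907.8 to 578.5 in PC3. NOP16 differed most, by -1.20 ± 0.13 (adjusted p = 0.000141), followed by MRTO4 at -1.07 ± 0.18 (adjusted p = 0.00325) and EXOSC2 at -1.04 ± 0.12 (adjusted p = 0.000306). At 10 µM, 37 members differed in the same direction (16.7% of all genes) and none in the other (15.2%), with NOP16 at -1.76 ± 0.13 (adjusted p = 1.94e-06), MRTO4 at -1.65 ± 0.18 (adjusted p = 4.11e-05), RRS1 at -1.59 ± 0.32 (adjusted p = 0.00472) and EXOSC5 at -1.51 ± 0.11 (adjusted p = 1.77e-06). Of these, RRS1 had passed as lower than vehicle in labelled LNCaP only. The median difference over members was -0.53 at 0.5 µM and -0.80 at 10 µM, against 0.02 and 0.03 over all genes. At an unadjusted p under 0.05, limma gave 0 members in the other direction at 0.5 µM and 1 at 10 µM.

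Setting PC3 against NCI-H660, 2 members differed at 0.5 µM, RRP12 (-1.80 ± 0.38, adjusted p = 0.0696) and POLR1B (-0.82 ± 0.15, adjusted p = 0.0424), both further down in PC3, where 0.78% of all genes were further down in PC3 and 0.906% the other way. At 10 µM 19 members had the lower change in PC3 and none in NCI-H660, where limma's unadjusted p under 0.05 also gave 0 (4.92% and 6.4% of all genes), among them WDR43 (-1.32 ± 0.20, adjusted p = 0.00287), WDR3 (-1.08 ± 0.17, adjusted p = 0.00334) and NPM3 (-1.33 ± 0.35, adjusted p = 0.0591). A lower change in PC3 was not always a fall there. TAF1D was among the 19 (-0.97), with means at vehicle and 10 µM of 1038 and 1114 in PC3 and 930.2 and 1958 in NCI-H660. The 2 became 0 or 1 without any 1 of NCI-H660 vehicle replicate 1, the NCI-H660 0.5 µM arrays and the PC3 vehicle and 0.5 µM arrays, and the 19 became 12 without NCI-H660 vehicle replicate 2 or 10 µM replicate 2. Labelled LNCaP was further down than labelled VCaP for 8 members at 0.5 µM (2.99% of all genes, against 5.7% the other way) and 15 at 10 µM (9.78%, against 12.1%), and none was further down in labelled VCaP, where limma gave 0 and 3 at an unadjusted p under 0.05. At 10 µM the largest were RRS1 (-2.15 ± 0.46, adjusted p = 0.011), RRP12 (-1.99 ± 0.38, adjusted p = 0.0058) and EXOSC5 (-1.82 ± 0.15, adjusted p = 1.27e-05). The 8 became 5 without labelled VCaP vehicle replicate 2, labelled VCaP 0.5 µM replicate 1, labelled LNCaP vehicle replicate 2 or either labelled LNCaP 0.5 µM array, and the 15 became 9 without labelled VCaP vehicle replicate 2.

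At 10 µM 12 members were lower than at 0.5 µM in labelled LNCaP and none higher (10.2% and 9.44% of all genes), and 7 were lower and none higher in labelled VCaP (5.62% and 4.29%). At an unadjusted p under 0.05, limma gave 3 and 0 as higher. NOP16, MRTO4, TSR1, BYSL, EXOSC2 and EXOSC5 were in both counts. HEATR1, a large scaffold of the early precursor particle, passed as lower in labelled LNCaP with -0.32 at 0.5 µM and -0.98 at 10 µM, a further change of -0.66 ± 0.11 (adjusted p = 0.00339). The 12 became 4 or 5 without either 0.5 µM array or 10 µM replicate 2 of labelled LNCaP, and the 7 became 1 to 4 without any 1 of the 0.5 µM and 10 µM arrays of labelled VCaP. Fitted with the arrays of a line alone, 0 members differed between the concentrations in any line, and limma's unadjusted p under 0.05 gave 9 lower in labelled LNCaP, 13 lower in labelled VCaP, 1 lower in PC3 and 1 higher in NCI-H660. Taking out 1 array at a time, the single call in PC3 (WDR43) was lost for 18 of the 24 arrays, arrays of other lines among them. The single call in NCI-H660 (TAF1D) was lost for 3. At an unadjusted p under 0.05, limma gave 3 lower and 1 higher in PC3, and 2 lower and 7 higher in NCI-H660.

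NCI-H660 began from lower signals of the module. In vehicle, 43 of the 47 members were lower in NCI-H660 than in the mean of the other 3 lines and none higher, where 34.8% of all genes were lower and 36.3% higher, and at an unadjusted p under 0.05 limma also gave 43 and 0. The median log2 difference was -1.38 over members and 0.00 over all genes. NCI-H660 had the lowest vehicle mean of the 4 lines for 42 members, and both its arrays lay below all 6 other vehicle arrays for 40. Neither count was made over all genes, so the usual size of such counts is not known. TSR1 read 500.1 and 563.3 in NCI-H660 vehicle, against 4158 and 3773 in labelled LNCaP, 4144 and 4063 in labelled VCaP and 3182 and 3488 in PC3, a difference of -2.83 ± 0.13 (adjusted p = 9.08e-10). NOP16 differed by -2.52 ± 0.10 (adjusted p = 3.86e-10), PES1 by -2.30 ± 0.13 (adjusted p = 5.81e-09) and POLR1B by -2.22 ± 0.09 (adjusted p = 3.2e-10), while FBL, at -0.60 ± 0.10 (adjusted p = 0.000192), and NCL, at -0.74 ± 0.08 (adjusted p = 3.06e-06), differed less in size. GNL2, a nucleolar GTPase, NOP58, NPM1 and TAF1D did not pass. These are 2 cultures of 1 line against 2 of each of the others, and growth rate was not measured here.

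Among the members, the order of the lines changed with treatment. NCI-H660 had the lowest mean for 42 members in vehicle, 34 at 0.5 µM and 25 at 10 µM, while labelled LNCaP had it for 2, 8 and 17, labelled VCaP for 2, 5 and 5, and PC3 for 1, 0 and 0. In vehicle the highest mean was in PC3 for 24 members, in labelled VCaP for 14 and in labelled LNCaP for 9. None of these counts was made over all genes, so they do not set the members apart from genes in general.

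**Figure D3:**
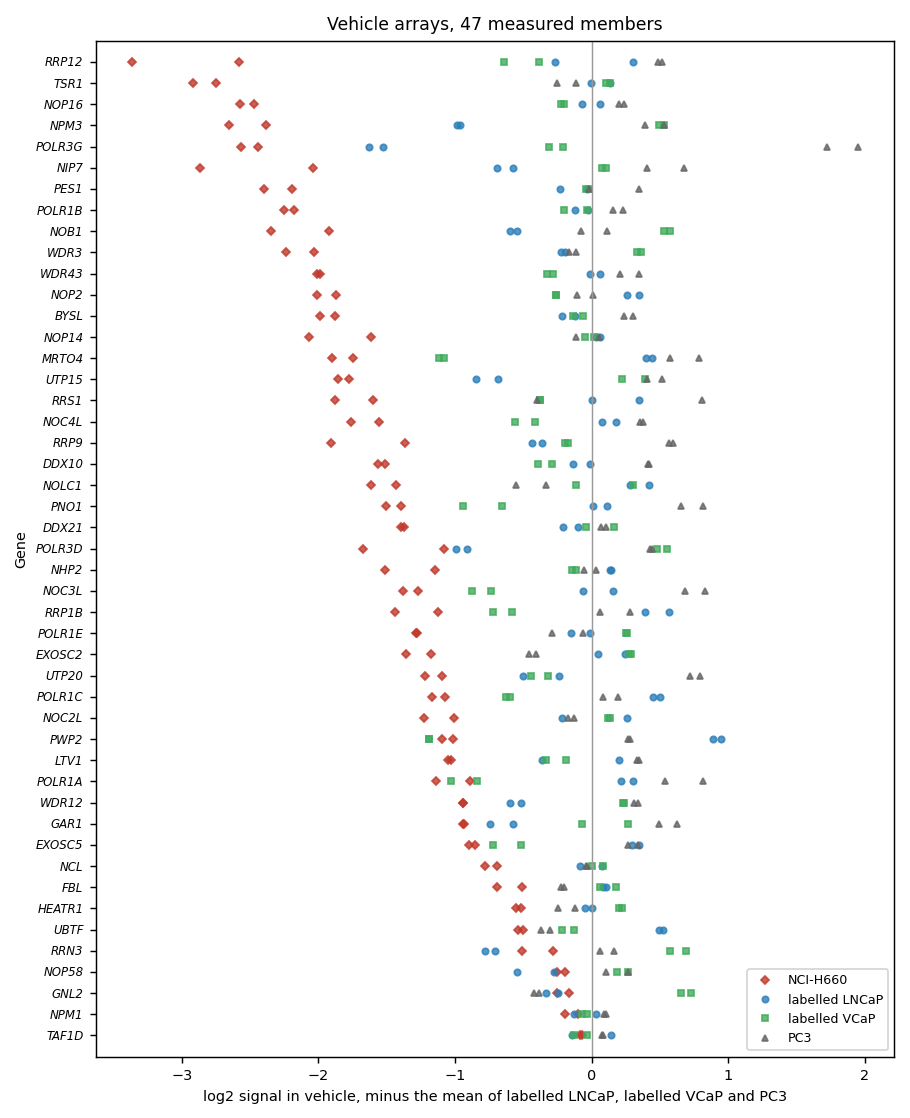
Log2 signal of each of the 47 members (rows) on the 8 vehicle arrays, minus the mean of labelled LNCaP, labelled VCaP and PC3 for that gene; red diamonds are NCI-H660 arrays and the other symbols are the other lines. The NCI-H660 arrays lie left of all 6 others for 40 members and do not for the other 7, which include GNL2, NOP58, NPM1 and TAF1D in the lowest rows. The same count was not made over all genes.

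Changes were then set side by side for members with and without the hexamer. In labelled LNCaP at 0.5 µM the median log2 change was -0.997 over 17 measured members with it, of which 16 were lower, and -0.58 over 22 without it, of which 16 were lower. At 10 µM there the medians were -1.17 and -0.85, again with 16 and 16 lower. In labelled VCaP they were -0.42 and -0.42 at 0.5 µM, with 8 and 13 lower, and -0.62 and -0.71 at 10 µM, with 11 and 16 lower, the members without the hexamer having the lower median there. In PC3 they were -0.36 and -0.20 at 0.5 µM, with 2 and 2 lower, and -0.46 and -0.22 at 10 µM, with 10 and 7 lower. In NCI-H660 they were 0.18 and 0.19 at 0.5 µM, with 1 and 5 higher, and 0.19 and 0.23 at 10 µM, with 5 and 7 higher. No test was made between these groups. MYC itself changed by -1.59 and -1.96 in labelled LNCaP, -1.26 and -2.61 in labelled VCaP, -0.92 and -0.996 in PC3 (adjusted p between 3.63e-09 and 0.000275), and by 0.15 and 0.73 in NCI-H660 (adjusted p = 0.605 and 0.000286), at 0.5 µM and 10 µM. Its part in the members' changes was not tested.

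Among other genes of the pathway, falls outnumbered rises in every line but NCI-H660, and few cytosolic ribosomal proteins passed as lower. A further 6 lists, of small-subunit, large-subunit, snoRNP, exosome, RNA polymerase I and RNA polymerase III genes, held 140 detected genes. Of these, 68 were lower and 4 higher in labelled LNCaP at 0.5 µM, 36 and 2 in labelled VCaP, 9 and 1 in PC3, and 3 and 8 in NCI-H660. Of all genes, 16.5% were lower and 17.4% higher in labelled LNCaP, 13.2% and 11.8% in labelled VCaP, 4.44% and 6.66% in PC3, and 3.27% and 4.36% in NCI-H660. At 10 µM the counts were 85 and 4, 71 and 7, 38 and 5, and 17 and 27 in the same order of lines. The shares of all genes there were 26.7% and 27.1%, 21.8% and 20.1%, 14% and 16.1%, and 16.8% and 16.9%. In NCI-H660 at 10 µM the lists thus had 12.1% lower and 19.3% higher, beside 16.8% and 16.9% of all genes. Of 76 cytosolic ribosomal protein genes listed, 51 had a single-symbol probe set and the others were not analysed. Of the 51, 1 and 2 were lower in labelled LNCaP at 0.5 µM and 10 µM (16.5% and 26.7% of all genes). In labelled VCaP 0 and 0 were lower (13.2% and 21.8%), and in PC3 0 and 1 (4.44% and 14%). In NCI-H660 13 of these ribosomal protein genes were higher at 10 µM, where 16.9% of all genes were. Their median log2 change was 0.04 in labelled LNCaP and 0.30 in NCI-H660 at 10 µM, where the members' medians were -1.08 and 0.23.

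**Figure D4:**
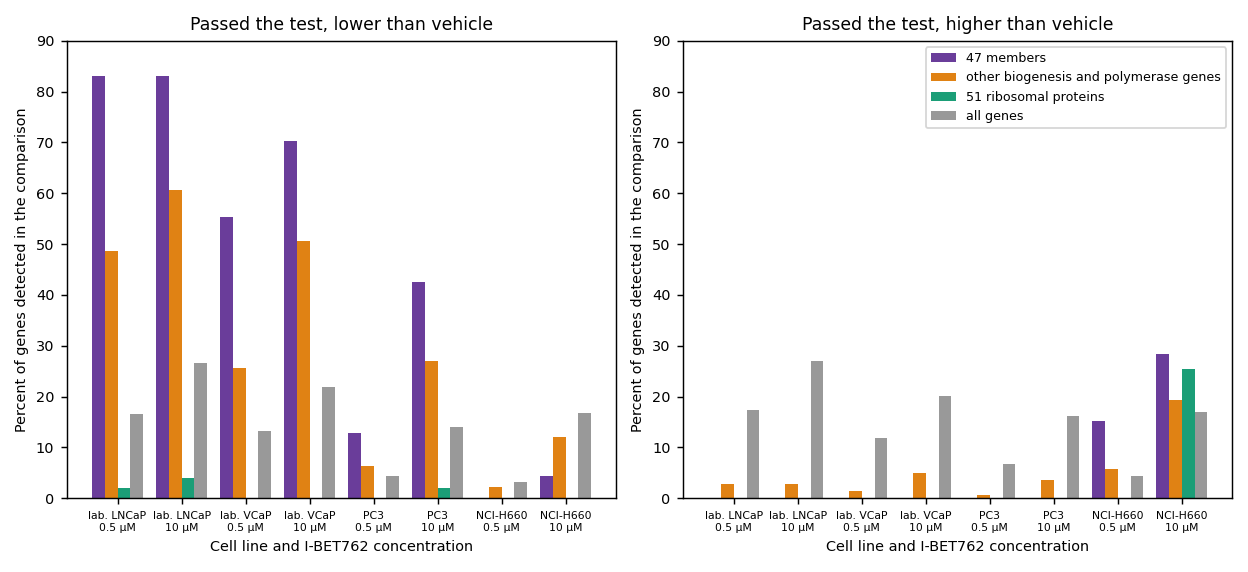
Percent of detected genes that passed as lower (left) and as higher (right) than vehicle in each line at 0.5 µM and 10 µM, for the members (purple), 141 other biogenesis and polymerase genes (orange), 51 cytosolic ribosomal proteins (green) and all genes (grey). Purple stands above grey on the left for labelled LNCaP, labelled VCaP and PC3, and on the right only in NCI-H660.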

How the data were processed

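The authors processed each array with MAS5, and the deposited signal intensities, on a linear scale, had been brought by the authors to a trimmed mean of 500 per array. Deposited detection calls were not used. Each line's 6 arrays were grouped by label. Signals were turned to log2, and 1 limma (version 3.58.1, R 4.3.3) model of 12 groups was fitted to 54613 probe sets without an intensity trend, with 12 residual degrees of freedom. Controls (62 probe sets) were left out. Benjamini-Hochberg adjustment ran over all probe sets of a contrast, and a gene passed at an adjusted p under 0.1 with a mean signal of 100 in either group. The platform annotation gave 41091 probe sets 1 symbol, 1801 several and 11721 none. Each gene was read from 1 single-symbol probe set, the brightest by mean log2 signal, and from sets ending in _x_at only where it had no other. No probe set's level was compared with another's. Folds against a mean under 100 used 100 and are bounds.

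The members and the gene lists were chosen with earlier results of these data known. Values on each array were given for 24 members, named by rule: in each role the 2 that passed, with no overlap of arrays, at the largest absolute change, the 3 largest rises of each line and concentration, and all RNA polymerase I members; NOP16 and others were added after their values were seen. Promoter windows came from RefSeq; stretches of at most 30 bases around the hexamer were printed in place of whole windows. Scripts were tested on simulated data. Alternatives covered normalization, floor, threshold, fold, probe set choice, intensity trend, fits by line, a replicate block and leaving out each array.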

Additional observations from a re-analysis of the deposited data

Results flagged for a closer look

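The results listed here are those in which the response to I-BET762 differed between lines by a test of the difference itself (limma, adjusted p under 0.1). Groups held 2 arrays, so no array could be tested as standing apart from its group. For the mean change of labelled LNCaP and labelled VCaP set against that of PC3 and NCI-H660, 29 members were further down at 0.5 µM and 37 at 10 µM. For PC3 against NCI-H660, 2 members differed at 0.5 µM and 19 at 10 µM. For labelled LNCaP against labelled VCaP, 8 differed at 0.5 µM and 15 at 10 µM, all further down in labelled LNCaP.

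Differences of more than 1 on the log2 scale were as follows. At 0.5 µM they were -1.20 for NOP16, -1.07 for MRTO4 and -1.04 for EXOSC2 in labelled LNCaP and VCaP against PC3 and NCI-H660. RRP12 differed by -1.80 in PC3 against NCI-H660, whose vehicle mean was under 100. In labelled LNCaP against labelled VCaP they were -1.03 for PWP2, -1.78 for RRP12, -1.02 for NOP16 and -1.27 for EXOSC5.

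At 10 µM, the mean change of labelled LNCaP and VCaP was further down than that of PC3 and NCI-H660 for assembly factors. These were NOP16 (-1.76), MRTO4 (-1.65), RRS1 (-1.59), TSR1 (-1.48) and NOP14 (-1.20). The snoRNP proteins RRP9 (-1.19) and NOLC1 (-1.11), the exosome subunits EXOSC2 (-1.51) and EXOSC5 (-1.51) and the polymerase subunits POLR1B (-1.18) and POLR1C (-1.21) lay in the same direction. RRS1 had passed as lower than vehicle in labelled LNCaP only, and its PC3 vehicle arrays read 5234 and 2267. PC3 was further down than NCI-H660 for RRP12 (-1.65), NPM3 (-1.33), WDR43 (-1.32), WDR3 (-1.08) and POLR3G (-1.03), the last with every NCI-H660 array under 100. Labelled LNCaP was further down than labelled VCaP for RRS1 (-2.15), RRP12 (-1.99), EXOSC5 (-1.82), MRTO4 (-1.06) and PNO1 (-1.04).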

How the results depend on the processing

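The counts of members are limited by 2 arrays a group, so each fold rests on few cultures, and MAS5 signals near 100 are noisy. Over 185 calls of members and their alternatives, 5947 of 6660 values kept direction and threshold, 704 kept direction only and 9 turned sign, all 9 where probe sets of a gene were averaged. Those were PWP2 at 0.235 and 0.079 in labelled LNCaP, 0.104 in PC3 at 10 µM and -0.632 and -0.565 in NCI-H660, RRP12 at 0.004 and DDX10 at 0.158 in labelled LNCaP at 10 µM, NOP16 at 0.043 in PC3 and WDR3 at -0.003 in NCI-H660, both at 10 µM. The cause was not tested. The pooled counts mix settings that differed widely, so they do not measure how firm a call is. All 185 calls were kept without a floor, with _x_at sets allowed, with an intensity trend and with adjustment over detected probe sets. Fitted line by line, 87 of the 185 were kept. With a fold over 2, 61 were kept, and with averaged probe sets 124.

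Fitted line by line, with fewer arrays in each fit, 19 members were lower in labelled LNCaP and 4 in labelled VCaP at 0.5 µM, 0 in PC3 at either concentration, 0 lower in NCI-H660 at 10 µM, 0 and 5 higher there at 0.5 µM and 10 µM, and 0 differed between the concentrations in any line. A fold over 2 as an added condition left 15 in labelled LNCaP at 0.5 µM, 2 and 12 in labelled VCaP, 0 and 3 in PC3, 0 lower in NCI-H660 at 10 µM and 1 and 1 higher. It left 3 and 11 of the differences between labelled LNCaP and VCaP and the other lines, 1 and 5 between PC3 and NCI-H660, 4 and 5 between labelled LNCaP and labelled VCaP, and 2 between the concentrations in labelled LNCaP, with 0, 0 and 0 in the others. Averaged probe sets gave 16 for labelled VCaP at 0.5 µM, 13 for PC3 at 10 µM, 3 higher in NCI-H660 at 0.5 µM, 12 for PC3 against NCI-H660 at 10 µM and 3 for labelled LNCaP against labelled VCaP at 0.5 µM.

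Median centring gave 1 for PC3 at 0.5 µM, 0 lower in NCI-H660 at 10 µM and 2 higher at 0.5 µM, and 5 between concentrations for labelled LNCaP and 0 for PC3. An intensity trend gave 13 for PC3 at 0.5 µM, 13 for PC3 against NCI-H660 and 14 for labelled LNCaP against labelled VCaP at 0.5 µM, and between concentrations 19 for labelled LNCaP, 14 for labelled VCaP, 2 for PC3 and 7 for NCI-H660. An adjusted p under 0.05 gave 0 for PC3 and 2 higher in NCI-H660 at 0.5 µM, 1 and 5 for PC3 against NCI-H660 and labelled LNCaP against labelled VCaP at 0.5 µM, and 7, 4 and 0 between concentrations in labelled LNCaP, labelled VCaP and PC3. Adjusting over detected probe sets gave 10 for PC3 at 0.5 µM and 11 between concentrations in labelled VCaP. A floor of 200 and quantile normalization each left 1 lower member in NCI-H660 at 10 µM, and quantile normalization gave 2 between its concentrations.

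Deviations of same-numbered arrays correlated at -0.02 to 0.08, so no strong effect shared by replicate number was seen. Whether same-numbered cultures were handled together cannot be read from this. With the replicate number as a block, the counts became 0 for PC3 and 1 higher for NCI-H660 at 0.5 µM, 0 for PC3 against NCI-H660 and 5 for labelled LNCaP against labelled VCaP at 0.5 µM, and 6, 3 and 0 between concentrations in labelled LNCaP, labelled VCaP and PC3; no other count moved by over 1.5 times.

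Leaving out any 1 array gave 29 to 39 and 35 to 40 lower members for labelled LNCaP, 11 to 26 and 28 to 34 for labelled VCaP, 0 to 7 and 13 to 21 for PC3, and 0 and 0 to 2 lower and 0 to 7 and 8 to 14 higher for NCI-H660, at 0.5 µM and 10 µM. It gave 22 to 30 and 35 to 37 differences for labelled LNCaP and VCaP against the other lines, 0 to 3 and 12 to 19 for PC3 against NCI-H660, 5 to 8 and 9 to 15 for labelled LNCaP against labelled VCaP, and between concentrations 4 to 12 for labelled LNCaP, 1 to 9 for labelled VCaP and 0 to 1 for either PC3 or NCI-H660, and 42 to 44 for NCI-H660 in vehicle.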

Other observations

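The further pathway lists did not all hold the same share of falls. Of 44 other large-subunit factors detected, 30 were lower in labelled LNCaP at 0.5 µM and 32 at 10 µM, with medians of -0.62 and -0.78, where 16.5% and 26.7% of all genes were lower. Of 24 other RNA polymerase III genes, 6 were lower and 3 higher at 0.5 µM, and 10 and 2 at 10 µM. The 11 exosome subunits and cofactors had 8 lower in labelled LNCaP at 10 µM, 7 in labelled VCaP and 7 in PC3 (26.7%, 21.8% and 14% of all genes). NCI-H660 had 5 lower and 2 higher. In NCI-H660 at 10 µM the large-subunit list held 8 higher and 4 lower genes, the small-subunit list 5 and 2 of 40, and the RNA polymerase III list 7 and 4, where 16.9% of all genes were higher and 16.8% lower. Differences between these lists were not tested.

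Of the 51 cytosolic ribosomal protein genes analysed, 22 were lower in NCI-H660 than in the mean of the other lines in vehicle and none was higher, where 34.8% of all genes were lower. Their median log2 difference was -0.21, beside -1.38 for the members.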
